A study of Mus musculus with 8 samples.

Results

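The naive pluripotency transcription factors described here were the 10 genes Klf2, Klf4, Klf5, Esrrb, Tbx3, Tfcp2l1, Nr0b1, Zfp42, Nr5a2 and Gbx2, chosen as known factors of the naive state of mouse embryonic stem cells (ESCs) and not by a threshold on the values. All 10 were measured, by 24 probe sets that each named only 1 gene in the annotation of the array, out of 34945 such probe sets for 18193 genes. The study asked what loss of the AP-2 transcription factor TFAP2C does to gene expression in primordial germ cell-like cells (PGCLCs), the cultured counterpart of the precursors of sperm and eggs. For these genes the question was whether PGCLCs without TFAP2C lay at the level of control PGCLCs, at the level of the ESCs, or between.

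RNA was measured on 8 Affymetrix mouse genome expression arrays, 2 for each of 4 groups. Tfap2c-/- PGCLCs, ctrl PGCLCs, Tfap2c-/- ESCs and ctrl ESCs all carried Blimp1mVenus, a reporter transgene for the germ cell factor Blimp1. The ctrl cells were Blimp1mVenus/Tfap2c flox/flox, with an undeleted floxed gene rather than a wild type one, and came from 2 ESC lines. The Tfap2c-/- cells were made from these lines in culture with a transiently transfected pGK-Cre plasmid. The paper gives LIF, the MEK inhibitor PD0325901 and CHIR99021 in the medium of the ESCs used for expression analysis. PGCLCs were derived from the ESCs by way of epiblast-like cells, then with BMP4, BMP8b, SCF, LIF and EGF, and were sorted for the reporter, so a PGCLC sample was selected for cells with the Blimp1 reporter on. The purity of the sorted cells was not given in the sources used here. The paper reports fewer reporter-positive cells from Tfap2c-/- ESCs, a drop that did not reach significance for every line. For the arrays the paper names ctrl and Tfap2c-/- cells of both lines, as ESCs and as PGCLCs. With 2 samples in a group, these would then be from different lines, and for PGCLCs from separate inductions. The labels do not say which line a numbered sample came from. Tfap2c-/- samples could therefore not be matched to the ctrl samples of their own line, and the groups were compared without such pairing. The p-values measure only the spread between these samples.

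As background, naive pluripotency is the state of the early epiblast of the blastocyst and of ESCs kept in LIF. LIF signals through STAT3 to Klf4, Gbx2 and Tfcp2l1, WNT signalling relieves repression by Tcf7l1 of Esrrb, Nr0b1 and others, and these factors hold one another and the core factors Pou5f1, Sox2 and Nanog active. Most of the naive factors are turned down as cells pass to the primed epiblast state, and germ cell precursors take up some of them again.

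TFAP2C binds DNA at the AP-2 palindrome, so the windows around the gene starts were searched for its letters GCCNNNGGC, which read the same on both strands. In RefSeq windows of 300 bases (250 before a gene start and 50 after it, build GRCm38.p6), the letters were found in 5450 of 32851 windows (16.6%). Windows were given for 8 of the 10 genes (10 windows, not for Klf5 and Tbx3), and the letters were found in 1 window each of 4 genes. These 4 stretches are shown because Klf4 was among the genes that rose in Tfap2c-/- PGCLCs, while Zfp42, Tfcp2l1 and Nr0b1 did not pass the test there. Capitals mark the match, and each run is written 5′ to 3′ on the strand of its gene.
Klf4, chr4:55532466-55532494, minus strand: gcgcgcggcgGCCGCCGGCagttccccgg
Nr0b1, chrX:86191781-86191809, plus strand: agctacaggaGCCTCAGGCcatggcgggt
Tfcp2l1, chr1:118627704-118627732, plus strand: ctgagcaactGCCTTGGGCtcagcgtgga
Zfp42, chr8:43307091-43307119, minus strand: cacctgaaggGCCAGGGGCccgcccacat
The match began 9 bases before the start of Klf4, 100 before that of Zfp42, and at base 17 of Nr0b1. For Tfcp2l1 it began 231 bases before the start point of its window, which lies inside the gene as RefSeq lists it. No match was found in the window of Gbx2, the other gene that rose. The letters TCAAGGTCA, the element bound by estrogen-related receptors such as ESRRB, were in 139 of all windows (0.423%) and in 0 of the 10 windows of these genes. A match is a run of letters and not a measured binding site. By ChIP-qPCR in PGCLCs the paper reported TFAP2C enriched at a putative site of Klf4, which was not compared with the match here.

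The array values used below are levels on the log2 scale, in which a difference of 1 is a doubling. Where a gene had several probe sets, the one with the highest mean over the 8 arrays stood for it. The array medians lay between 3.47 and 3.55, and the values between 1.10 and 13.64. Ctrl PGCLC 2 stood apart in the quality measures: its labelling spike-ins averaged 7.91, against 7.44 and 6.72 in Tfap2c-/- PGCLCs and 5.42 to 5.91 in the other 5 samples, and its Gapdh signal was 0.95 higher at the 3′ end than at the 5′ end, against 0.31 to 0.52 in the others. The signal of Tfap2c itself was 8.52 and 8.85 in Tfap2c-/- PGCLCs, against 9.84 and 10.29 in ctrl PGCLCs, and 7.28 and 6.47 in Tfap2c-/- ESCs, against 7.88 and 9.14 in ctrl ESCs. Both Tfap2c-/- samples lay below both ctrl samples in each cell type, by 1.38 (adjusted p = 0.15) and 1.63 (adjusted p = 1.0, limma) on the log2 scale. Whether its probes lie in the deleted exons was not given in the sources used here.

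In PGCLCs, Klf4 and Gbx2 rose in the absence of TFAP2C, about 4.67-fold and 5.16-fold, while Klf2, Esrrb and Nr5a2 differed by less than 0.20 on the log2 scale. Nr0b1, Klf5, Tbx3 and Zfp42 lay higher in both Tfap2c-/- samples than in both ctrl samples but did not pass the test. Of the 10 genes, 2 passed limma at an adjusted p under 0.05, both higher, in a comparison in which 3.09% of all genes passed and 1.29% passed as higher. The difference of means was positive for 10 of 10 genes, against 43.3% of all genes, and its median was 0.60 against -0.04 over all genes. For 6 of the 10, both Tfap2c-/- PGCLCs lay above both ctrl PGCLCs, which held for 19.5% of all genes. Before adjustment 5 of the 10 had p under 0.05, against 15.7% of all genes. By the rule of the study, a difference of means over 1.5 on the log2 scale, 3 of the 10 were higher (Klf4, Gbx2 and Nr0b1), where 1.95% of all genes passed in either direction. These same 3 had been listed by the study as upregulated in these samples, so they are not independent evidence of the direction. The study also reported a rise of Klf4 in PGCLCs by qRT-PCR. Of the other 7 genes 0 passed limma, their median difference was 0.36, and for 3 of them both Tfap2c-/- samples lay above both ctrl samples. Without ctrl PGCLC 2, 0 of the 10 genes passed, and 0.478% of all genes did.

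**Figure D1:**
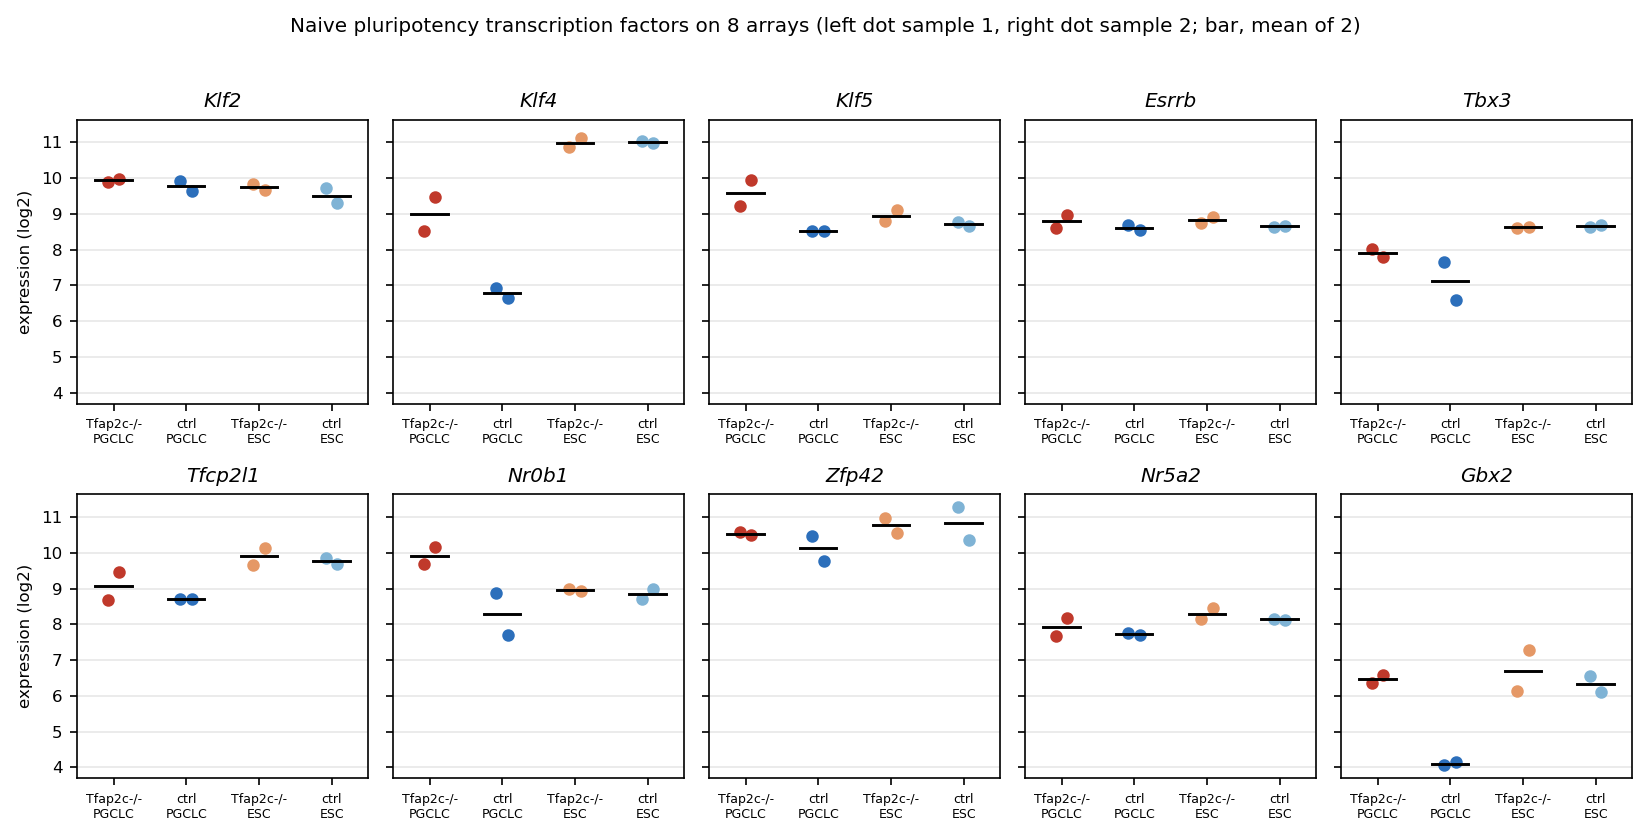
Expression of each of the 10 genes on the log2 scale (y axis) in Tfap2c-/- PGCLCs, ctrl PGCLCs, Tfap2c-/- ESCs and ctrl ESCs (x axis), with 1 dot per sample and a bar at the mean of 2. Klf4 and Gbx2 are the genes with ctrl PGCLCs far below the other 3 groups, while Klf2 and Esrrb are nearly level over all 8 samples.

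Klf2, Klf4 and Klf5 encode Krüppel-like zinc finger factors that bind GC-rich DNA and can stand in for one another in holding ESCs undifferentiated. Klf4, which is also one of the reprogramming factors, was at 8.52 and 9.48 in Tfap2c-/- PGCLCs, against 6.91 and 6.65 in ctrl PGCLCs, 10.87 and 11.11 in Tfap2c-/- ESCs, and 11.03 and 10.98 in ctrl ESCs. The groups did not overlap in PGCLCs, and ctrl PGCLCs were the lowest of all samples. The difference between Tfap2c-/- and ctrl PGCLCs was 2.22 ± 0.28 (SE, n = 2 per group, 95% interval 1.57 to 2.87, adjusted p = 0.0094, limma). Its second probe set gave levels of 7.61 and 8.39 in Tfap2c-/- PGCLCs, against 5.88 and 5.87 in ctrl PGCLCs, a difference of 2.12. Without ctrl PGCLC 2 the difference was 2.09 and the adjusted p 0.0858, and in a fit of the PGCLC samples alone the adjusted p was 0.0725.

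Klf5, needed in the blastocyst for both the trophectoderm and the epiblast lineage, was at 9.21 and 9.93 in Tfap2c-/- PGCLCs, against 8.52 and 8.52 in ctrl PGCLCs, 8.79 and 9.09 in Tfap2c-/- ESCs, and 8.78 and 8.66 in ctrl ESCs. Tfap2c-/- PGCLCs thus held the 2 highest values of the 8 samples, with a difference from ctrl PGCLCs of 1.05 ± 0.23 (SE, adjusted p = 0.057). It passed without Tfap2c-/- PGCLC 1, the lower of the pair, with a difference of 1.41 (adjusted p = 0.0251), and was 0.69 (adjusted p = 0.212) without Tfap2c-/- PGCLC 2. A dimmer probe set of Klf5 scattered more, with 6.29 and 7.75 in Tfap2c-/- PGCLCs against 5.18 and 6.15 in ctrl PGCLCs. Klf2, the Krüppel-like factor most tied to culture with a MEK inhibitor, was at 9.89 and 9.98 in Tfap2c-/- PGCLCs, against 9.93 and 9.64 in ctrl PGCLCs, 9.84 and 9.67 in Tfap2c-/- ESCs, and 9.71 and 9.29 in ctrl ESCs. The samples of the 2 PGCLC groups overlapped, and the interval of their difference ran from -0.23 to 0.54.

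Esrrb, Nr0b1 and Nr5a2 encode nuclear receptors. Nr0b1 (Dax1), an unusual receptor without the standard DNA binding domain that acts mostly as a corepressor, was at 9.68 and 10.16 in Tfap2c-/- PGCLCs, against 8.89 and 7.71 in ctrl PGCLCs, 9.0 and 8.92 in Tfap2c-/- ESCs, and 8.71 and 8.98 in ctrl ESCs. Both Tfap2c-/- PGCLCs lay above all other samples, while the ctrl PGCLCs were 1.18 apart. The difference was 1.62 ± 0.35 (SE, adjusted p = 0.0555), which exceeded the threshold of 1.5 used in the study but missed the adjusted p. The size of it hung on the ctrl pair: without ctrl PGCLC 2 it was 1.03, and without ctrl PGCLC 1 it was 2.21 and passed (adjusted p = 0.011).

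Esrrb, a main target of WNT signalling in ESCs, was at 8.61 and 8.97 in Tfap2c-/- PGCLCs, against 8.68 and 8.55 in ctrl PGCLCs, 8.74 and 8.92 in Tfap2c-/- ESCs, and 8.64 and 8.66 in ctrl ESCs. All 8 values fell within 0.41 of each other, and the interval of the knockout difference in PGCLCs was -0.18 to 0.52. Nr5a2 (Lrh1), which activates Pou5f1, was at 7.67 and 8.18 in Tfap2c-/- PGCLCs, against 7.76 and 7.70 in ctrl PGCLCs, 8.14 and 8.44 in Tfap2c-/- ESCs, and 8.16 and 8.12 in ctrl ESCs. The Tfap2c-/- PGCLCs lay on either side of the ctrl PGCLCs, with an interval of -0.26 to 0.65. A second bright probe set of Nr5a2 put them at 7.71 and 8.31, against 7.71 and 7.29.

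The other 4 genes belong to different families. Gbx2, a homeobox gene known for patterning the midbrain-hindbrain boundary and a STAT3 target in ESCs, was at 6.35 and 6.57 in Tfap2c-/- PGCLCs, against 4.06 and 4.14 in ctrl PGCLCs, 6.13 and 7.28 in Tfap2c-/- ESCs, and 6.56 and 6.11 in ctrl ESCs. The 2 ctrl PGCLCs were below all 6 other samples, by 1.97 or more. The difference between Tfap2c-/- and ctrl PGCLCs was 2.37 ± 0.35 (SE, 95% interval 1.54 to 3.19, adjusted p = 0.0169). Its size was 2.26 to 2.48 when any 1 of the 4 PGCLC samples was left out, but the adjusted p was then 0.066 to 0.123.

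Tbx3, a T-box factor that acts in the LIF network and also drives endoderm genes, was at 8.02 and 7.81 in Tfap2c-/- PGCLCs, against 7.64 and 6.58 in ctrl PGCLCs, 8.60 and 8.64 in Tfap2c-/- ESCs, and 8.64 and 8.68 in ctrl ESCs. The 3 other groups were tight, while the ctrl PGCLCs were 1.06 apart. The difference in PGCLCs was 0.80 ± 0.30 (SE, adjusted p = 0.245), was 0.27 without ctrl PGCLC 2, and passed without ctrl PGCLC 1 at 1.33 (adjusted p = 0.0204). Its second bright probe set showed the same low ctrl sample, with 7.79 and 7.53 in Tfap2c-/- PGCLCs against 7.18 and 5.73 in ctrl PGCLCs.

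Tfcp2l1, a grainyhead-like factor on which the LIF and WNT inputs meet, was at 8.68 and 9.45 in Tfap2c-/- PGCLCs, against 8.72 and 8.70 in ctrl PGCLCs, 9.65 and 10.14 in Tfap2c-/- ESCs, and 9.85 and 9.69 in ctrl ESCs. Tfap2c-/- PGCLC 1 was at the ctrl level, and Tfap2c-/- PGCLC 2 was 0.77 above it. Zfp42 (Rex1), a zinc finger gene much used as a reporter of the naive state, was at 10.57 and 10.50 in Tfap2c-/- PGCLCs, against 10.48 and 9.78 in ctrl PGCLCs, 10.97 and 10.56 in Tfap2c-/- ESCs, and 11.27 and 10.37 in ctrl ESCs. The Tfap2c-/- PGCLCs lay just above the ctrl PGCLCs, and the interval of the difference was -0.34 to 1.15. As these were bulk samples, fewer cells that express a gene and less of its RNA per cell cannot be told apart for any of these values.

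**Figure D2:**
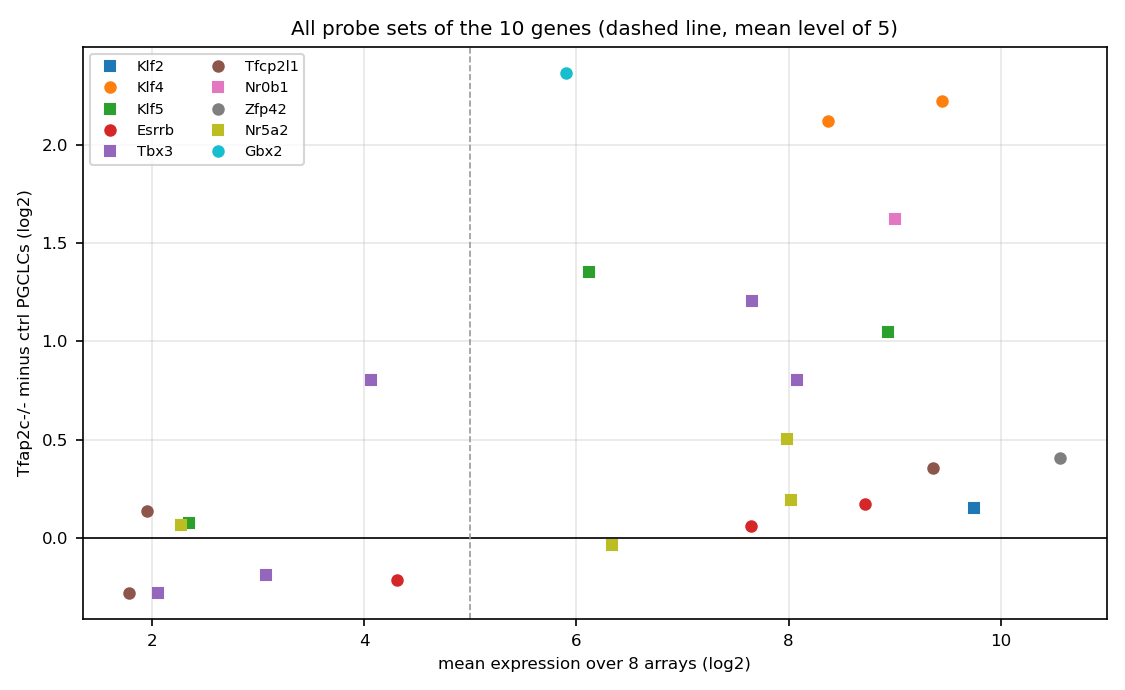
Difference between Tfap2c-/- and ctrl PGCLCs on the log2 scale (y axis) against the mean level over 8 arrays (x axis) for the 24 probe sets of the 10 genes, 1 symbol per probe set. Both Klf4 probe sets lie above 2, and the dashed line at 5 parts the 8 dim probe sets from the other 16.

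Of the 24 probe sets, 8 had a mean under 5 and 16 were brighter. Of the genes with more than 1 bright probe set, 4 had positive differences between Tfap2c-/- and ctrl PGCLCs on each of their 2. These were 2.12 and 2.22 for Klf4, 1.05 and 1.35 for Klf5, 0.80 and 1.21 for Tbx3, and 0.06 and 0.17 for Esrrb. Nr5a2 had differences of 0.19, 0.51 and -0.04 on 3 bright probe sets, so its direction was not shared by them. The dim probe sets, of Klf5, Esrrb, Tbx3, Tfcp2l1 and Nr5a2, ran from -0.28 to 0.80.

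The ctrl cells gave the scale on which Tfap2c-/- PGCLCs were placed. The cell types also differed in culture medium, so differences of cell type and of medium cannot be told apart. In ctrl PGCLCs relative to ctrl ESCs, Klf4 fell by 4.22 on the log2 scale (95% interval -4.88 to -3.57, adjusted p = 0.00066), about 18.7-fold lower and the largest difference of the 10. Gbx2 fell by 2.24 (adjusted p = 0.0114), Tbx3 fell by 1.55 (adjusted p = 0.0229) and Tfcp2l1 fell by 1.06 (adjusted p = 0.0456). These 4 of the 10 passed, all lower in ctrl PGCLCs, where 8.37% of all genes passed and 3.72% passed as lower. The remaining 6 did not pass: Zfp42 differed by -0.69, Nr0b1 by -0.55, Nr5a2 by -0.41, Klf5 by -0.20, Esrrb by -0.04 and Klf2 by 0.28. So 9 of the 10 genes had a lower mean in ctrl PGCLCs, with a median of -0.62 against -0.03 over all genes. Single samples moved some of the differences that did not pass: that of Nr0b1 was 0.05 without ctrl PGCLC 2 and -1.14 without ctrl PGCLC 1, that of Esrrb was 0.03 without ctrl PGCLC 2, and that of Zfp42 was -0.24 without ctrl ESC 1 and -1.14 without ctrl ESC 2. Klf4 passed whichever sample was left out. The calls of the other 3 were lost without single samples, for Tfcp2l1 without any of the 4 ctrl samples (adjusted p 0.143 to 0.199), for Tbx3 without ctrl ESC 1 or 2 (0.111 and 0.109) and for Gbx2 without ctrl PGCLC 1, ctrl PGCLC 2 or ctrl ESC 1 (0.0593, 0.0688 and 0.084).

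A position was then computed for the 4 genes whose ctrl groups were at least 1 apart, with the mean of ctrl PGCLCs at 0% and that of ctrl ESCs at 100%. The same ctrl PGCLC samples set the 0% end and entered the choice of the 4 genes and the knockout difference. The positions are therefore a description and not a test. Klf4 in Tfap2c-/- PGCLCs lay at 52.6% of the way, at 41.2% in sample 1 and 64.1% in sample 2. Tbx3 lay at 51.8%, at 58.6% and 45.0% in the samples, but at 26.7% without ctrl PGCLC 2 and 64.1% without ctrl PGCLC 1. Tfcp2l1 lay at 33.5%, but its samples were at -2.97% and 69.9%, so a mean position describes neither of them. Gbx2 lay at 106%, at 101% and 111% in the samples, just past the mean of the ctrl ESCs. Thus the means of 3 of the 4 lay between the ctrl groups, and that of Gbx2 above both, or between them without ctrl ESC 2.

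**Figure D3:**
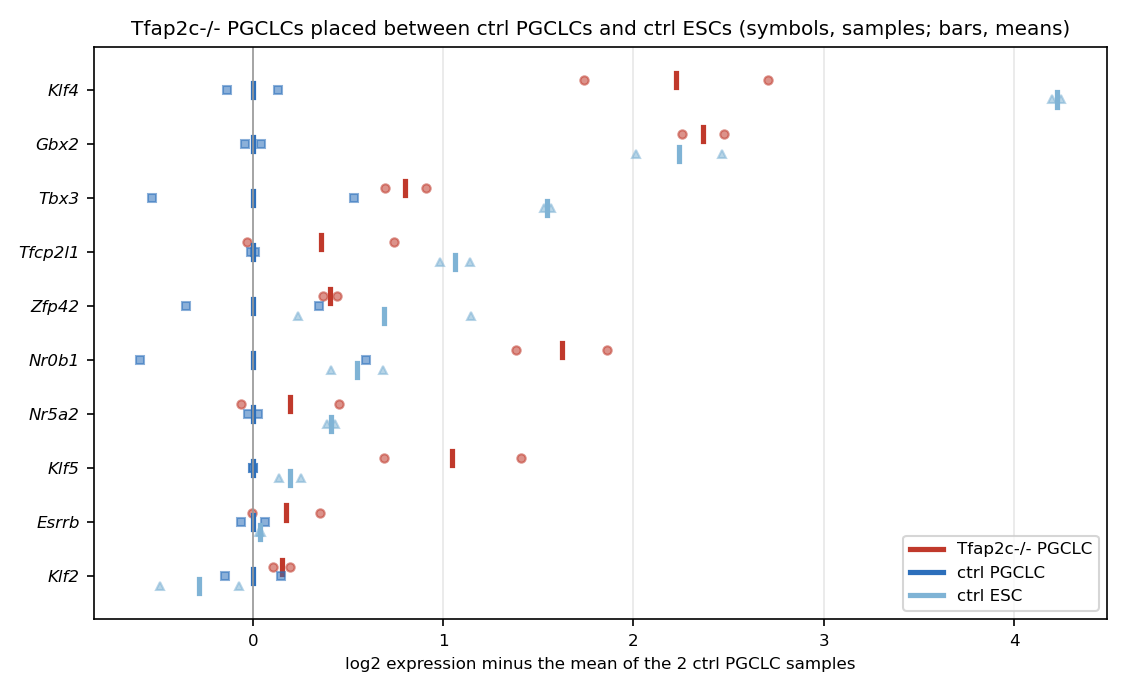
Log2 expression minus the mean of the 2 ctrl PGCLC samples (x axis) for each of the 10 genes (y axis), in Tfap2c-/- PGCLCs, ctrl PGCLCs and ctrl ESCs, with circles, squares and triangles for samples and bars for means. Klf4 in Tfap2c-/- PGCLCs is about midway to the ctrl ESCs, Gbx2 is at them, and Nr0b1 and Klf5 are beyond them.

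Tests against the ctrl ESCs describe the same order. Of the 10 genes, 1 differed between Tfap2c-/- PGCLCs and ctrl ESCs, where 2.58% of all genes did: Klf4 fell by 2.00 (95% interval -2.65 to -1.35, adjusted p = 0.0159), a call lost without ctrl ESC 1 or ctrl ESC 2 (adjusted p 0.0986 and 0.103). For Gbx2 the difference was 0.13, with an interval of -0.70 to 0.95, which spans both directions. Tbx3 differed by -0.75 (adjusted p = 0.218) and Tfcp2l1 by -0.71 (adjusted p = 0.179), with both Tfap2c-/- PGCLCs below both ctrl ESCs. Nr0b1 differed by 1.08 (adjusted p = 0.144) and Klf5 by 0.85 (adjusted p = 0.0928), with both Tfap2c-/- PGCLCs above both ctrl ESCs. The same held for Klf2, with a difference of 0.43 (adjusted p = 0.197, limma). The share of all genes whose samples did not overlap in this comparison is not given here. Before adjustment 6 of the 10 genes had p under 0.05 in limma, against 20.6% of all genes. Against the ESCs of their own genotype, Klf4 was again the 1 gene that passed, lower by a difference of -1.99 (adjusted p = 0.0177), where 2.32% of all genes passed. That call was lost without either Tfap2c-/- ESC sample (adjusted p 0.0587 and 0.0743).

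By the order of means, Tfap2c-/- PGCLCs lay between ctrl PGCLCs and ctrl ESCs for Klf4, Tbx3, Tfcp2l1, Zfp42 and Nr5a2. For Klf2, Klf5, Esrrb, Nr0b1 and Gbx2 they lay above both. Without Tfap2c-/- PGCLC 2, they lay below both for Esrrb, Tfcp2l1 and Nr5a2, so the order for these genes hung on that sample. For 6 of the 10 the ctrl groups were less than 1 apart, and for these the order is that of means closer than a 2-fold difference. The share of all genes in each of these places is not given here.

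In ESCs, no difference was called for any of the 10 genes. Of them 0 passed limma in Tfap2c-/- against ctrl ESCs, where 0% of all genes passed, and 0 had an unadjusted p under 0.05, against 2.5% of all genes (455). The differences ran from -0.05 for Zfp42 to 0.37 for Gbx2, with a median of 0.14. For Klf4 the difference was -0.01, with an interval of -0.66 to 0.64, and for Nr0b1 it was 0.12, with an interval of -0.70 to 0.93.

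The difference of the knockout effects between PGCLCs and ESCs was tested directly. It was 2.23 for Klf4 (95% interval 1.31 to 3.15, adjusted p = 0.113), 2.00 for Gbx2 (0.83 to 3.16, adjusted p = 0.257), 1.51 for Nr0b1 (0.36 to 2.66, adjusted p = 0.414) and 0.83 for Klf5 (0.08 to 1.58, adjusted p = 0.499). None of the 10 passed in limma (0.148% of all genes did), and 4 had an unadjusted p under 0.05, against 9.01% of all genes. For these 4 genes a larger effect was measured in PGCLCs than in ESCs, but it was not called for any of them.

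**Figure D4:**
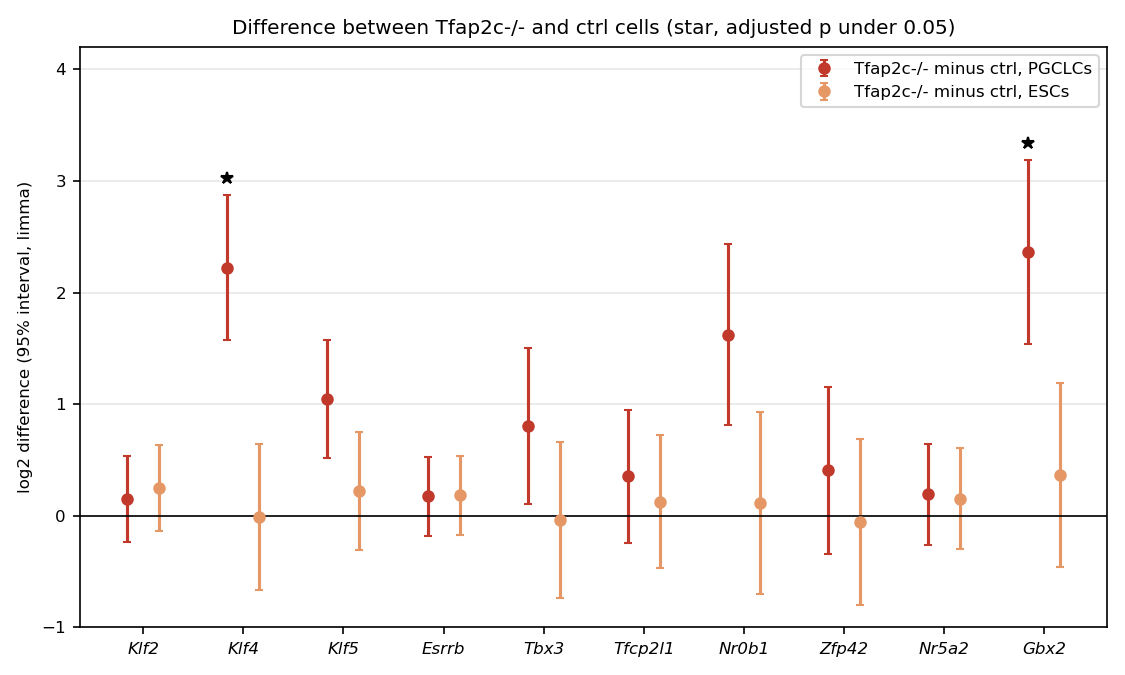
Difference between Tfap2c-/- and ctrl cells on the log2 scale with its 95% interval (y axis) for the 10 genes (x axis), in PGCLCs (red) and in ESCs (orange), with a star at an adjusted p under 0.05. The starred points are Klf4 (2.22) and Gbx2 (2.37) in PGCLCs, and every ESC interval includes 0.

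The samples of a group also differed in a shared way. Of the 10 genes, 8 were higher in Tfap2c-/- PGCLC 2 than in Tfap2c-/- PGCLC 1, against 44.9% of all genes, with a median of 0.42. Ctrl PGCLC 2 was above ctrl PGCLC 1 for 2 of the 10, against 45.6% of all genes, with a median of -0.20. Ctrl PGCLC 2 is the sample with the high spike-in signal and the steep Gapdh ratio, and its part in the levels of Nr0b1, Tbx3 and Zfp42, which differed most between the 2 ctrl PGCLC samples, was not tested.

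Genes that feed the network were described from lists. Of 12 genes of LIF and STAT3 signalling, 1 rose and 1 fell in Tfap2c-/- PGCLCs, where 1.29% of all genes rose and 1.8% fell. Socs3, the feedback inhibitor that STAT3 induces, was at 9.22 and 9.55 in Tfap2c-/- PGCLCs, against 8.16 and 8.49 in ctrl PGCLCs (adjusted p = 0.030, limma), and Lif itself was at 3.70 and 4.23 against 5.21 and 5.0 (adjusted p = 0.040). Of 11 measured WNT and TCF genes, 2 rose, both encoding TCF factors at the end of the WNT pathway. Tcf7l1, the repressor of naive genes, was at 8.81 and 9.07 in Tfap2c-/- PGCLCs, against 7.92 and 7.57 in ctrl PGCLCs (adjusted p = 0.033), and Tcf7l2 was at 6.25 and 6.63 against 4.36 and 3.39 (adjusted p = 0.039).

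Of 13 other Krüppel-like factors, 1 rose. Klf9 was at 10.54 and 11.21 in Tfap2c-/- PGCLCs, against 9.03 and 8.48 in ctrl PGCLCs, 10.66 and 11.10 in Tfap2c-/- ESCs, and 10.92 and 10.64 in ctrl ESCs (a difference of 2.12 in PGCLCs, adjusted p = 0.0094). For Klf9, as for Gbx2, ctrl PGCLCs were the low group, and Tfap2c-/- PGCLCs differed from ctrl ESCs by 0.09 (adjusted p = 0.878). Of 5 other nuclear receptors, of the ESRR, NR0B, NR5A and NR6A groups, 0 passed.

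Of the 4 core factors (Pou5f1, Nanog, Sox2 and Sall4), 0 passed in Tfap2c-/- PGCLCs, with a median of 0.06, and the largest differences were 0.25 for Pou5f1 and -0.19 for Sall4. Of 18 other measured genes of the naive state 4 rose and 2 fell, among them the Ras family gene Eras (8.90 and 9.39 in Tfap2c-/- PGCLCs, against 5.96 and 5.27 in ctrl PGCLCs), the growth factor gene Fgf4 (8.78 and 9.41, against 6.39 and 6.0), the germ cell gene Dppa3 (6.28 and 6.40, against 10.37 and 10.87) and the adhesion gene Pecam1 (4.22 and 4.32, against 5.90 and 5.65). Dppa3 and Pecam1 fell, while the other pair rose, as did Tdgf1 (a difference of 1.36) and Zfp57 (1.45), so the wider naive list did not move one way. Dppa3 is also in the list of germ cell genes below. Klf9, Tcf7l2, Eras, Fgf4, Tdgf1, Dppa3 and Pecam1, like Zic2, Zic5 and Kit below, are also among the genes that the study had listed from these samples.

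Of 15 measured genes of the primed epiblast, the state that follows the naive one, 3 rose and 0 fell, with a median of 1.04: Zic2 (8.21 and 8.73 in Tfap2c-/- PGCLCs, against 5.77 and 3.74 in ctrl PGCLCs), Zic5 (8.58 and 8.88, against 6.35 and 4.81) and Pou3f1 (4.92 and 4.65, against 3.28 and 3.64). The Zic genes were lowest in ctrl PGCLC 2, like Nr0b1 and Tbx3. Ctrl ESCs also had them, with 7.49 and 6.27 for Zic2 and 8.23 and 8.15 for Zic5. Pou3f1 was under 5 in every sample, with 3.76 and 4.13 in ctrl ESCs. Fgf5 and Sox3 of the same list had lower means in Tfap2c-/- than in ctrl PGCLCs (differences of -0.21 and -0.50), and neither passed.

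The labelled cell type was checked on 9 measured germ cell genes. In ctrl PGCLCs against ctrl ESCs 5 of them were higher (4.64% of all genes were) and 0 lower, with Prdm1 (Blimp1), the gene of the sort, at 8.93 and 8.98 against 7.08 and 6.85. In Tfap2c-/- PGCLCs Prdm1 was at 8.08 and 8.05, below both ctrl PGCLCs, a difference that did not pass (adjusted p = 0.256, limma). In Tfap2c-/- PGCLCs against ctrl PGCLCs 0 rose and 3 fell, namely Dppa3, Kit and Alpl, where 1.8% of all genes fell. The mean level of the list was 6.82 to 6.95 in Tfap2c-/- PGCLCs and 8.22 to 8.46 in ctrl PGCLCs. In Tfap2c-/- ESCs it was 6.14 to 6.57, and in ctrl ESCs 6.65 to 7.30. The list holds Tfap2c, the deleted gene, as well as Prdm1, so its mean is not independent of the genotype and the sort. The fall of germ cell genes thus went with the rise of Klf4 and Gbx2 in the same samples, and its part in that rise was not tested. Of the genes of mesoderm (7), endoderm (8), the neural lineage (5), trophoblast (7) and fibroblasts (8), 0 passed in this comparison. Their mean levels overlapped between Tfap2c-/- and ctrl PGCLCs for endoderm (3.01 to 3.76, against 3.06 to 3.83), trophoblast (4.69 to 5.33, against 4.89 to 5.35), mesoderm (3.83 to 4.11, against 3.81 to 3.84), neural genes (4.27 to 4.65, against 4.40 to 4.42) and fibroblast genes (4.03 to 4.75, against 3.58 to 4.63). These levels are low, where the size of a change is uncertain, and may be understated if the values came from RMA. The study lists other genes of somatic differentiation as upregulated, such as Nefl, Gli2, Sfrp1 and Ncam1, which are not in these lists.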

How the data were processed

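RNA of 8 samples, 2 in each of 4 groups taken from the labels, was measured on Affymetrix mouse genome arrays. The authors deposited log2 expression values, background corrected, normalized across arrays and summarized per probe set. RMA is the method given in the paper, while the processing notes of the submitters list GCRMA without a version. RMA compresses differences near background, so with it changes of dim probe sets may be understated. Which method gave the deposited values was not settled here, so the size of a change on a dim probe set is uncertain. Probe intensities were not used here, and no further normalization was applied. The number of arrays limits the precision.

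Of 45101 probe sets, 64 were controls, 34945 named 1 gene (18193 genes), 932 named several and 9160 had no gene in the platform annotation used here. Only those naming 1 gene were used. A gene was represented by its probe set with the highest mean. The 4 groups were fitted together in limma 3.58.1 under R 4.3.3 (lmFit and eBayes with a trend, 4 residual and 3.67 prior degrees of freedom), with two-sided tests, Benjamini-Hochberg adjustment over the 18193 genes and a threshold of 0.05. The script was tested on simulated data. The study's own rule, a difference of means over 1.5 on the log2 scale, was counted beside it. Folds are 2 to the power of a log2 difference. Intervals are 95% intervals of the fit.

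The 10 genes and all lists were chosen with earlier results of these data known. Named besides the 10 were, per list, up to 4 called genes with the largest difference in PGCLCs, or the 2 with the largest difference where none passed. For the lineage and nuclear receptor lists no gene is named. Prdm1, Fgf5, Sox3, Tdgf1 and Zfp57 were named after their values were seen. Of the listed genes, 10 were not analysed here. Alternatives were the probe set rule, a dim filter at 5, quantile normalization, eBayes without a trend, the PGCLC or ESC samples alone, the replicate number as a block, and each sample left out. The promoter windows are those of RefSeq, with the build GRCm38.p6.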

Additional observations from a re-analysis of the deposited data

How the results depend on the processing

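No called difference turned its direction under any alternative, and the count of genes past a difference of 1.5 in PGCLCs was 3, or 2 to 3 with 1 sample left out. Of the 10 genes, 2 passed between Tfap2c-/- and ctrl PGCLCs. The count was 4 without dim genes (Nr0b1 at an adjusted p of 0.0382 and Klf5 at 0.0383 in limma, over 9204 genes of which 7.76% passed), 1 with only the PGCLC samples (1.03% of all genes passed), and 0 to 3 with 1 sample left out (0 without ctrl PGCLC 2, where 0.478% of all genes passed, against 3.09% with all samples). Between ctrl PGCLCs and ctrl ESCs 4 passed, 2 with all probe sets of a gene averaged, and 1 to 4 with 1 sample left out. For Tfap2c-/- PGCLCs against Tfap2c-/- ESCs, and against ctrl ESCs, 1 passed, and 0 to 1 with 1 sample left out. For the difference of effects 0 passed, and 0 to 1 with 1 sample left out (Klf4, 2.71, adjusted p = 0.0355 in limma, without Tfap2c-/- PGCLC 1). Of the 4 genes placed on the ctrl scale, 3 lay between. With probe sets averaged 1 did, because the dim probe sets bring the gap of Tbx3 and Tfcp2l1 under 1, and 2 to 5 did with 1 sample left out.

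Whether the replicate numbers pair the samples is not known, since the labels do not tie them to the 2 lines. Deviations of same-numbered samples correlated from -0.33 (Tfap2c-/- and ctrl ESCs) to 0.39 (Tfap2c-/- and ctrl PGCLCs), above 0.1 for 3 of the 6 pairs of groups, so the numbers were not taken as a pairing. Under the replicate block the count in PGCLCs was 3, with Klf5 at an adjusted p of 0.0469, and no other call changed. Placing each number between the ctrl samples of its own number left 1 gene between in both. With the ESC numbers crossed, an alternative chosen after seeing the data, 0 genes passed in ESCs, as they did uncrossed. Over all pairings of a gene's difference with an alternative, 22 lost and 7 gained a call.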

Other observations

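Over the 8 arrays, the genes outside the 10 whose levels were most like the centred mean of the 10 were Ddx28 (Pearson's r 0.988), Gpalpp1 (0.984) and Mindy1 (0.983), among 4586 genes that ranged over more than 1 on the log2 scale. This is a description of 8 arrays in 4 groups, chosen as the highest of many, with no test. Mindy1 was at 8.11 and 8.55 in Tfap2c-/- PGCLCs, 7.72 and 7.43 in ctrl PGCLCs, 8.30 and 8.48 in Tfap2c-/- ESCs, and 8.43 and 8.22 in ctrl ESCs.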
